A study of Saccharomyces cerevisiae W303 with 24 samples.

Results

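The genes described here are budding yeast genes on a duplicated chromosome whose RNA exceeded the other strains by more than the extra copy alone would give, in 2 genotypes. For each gene a response was taken as its log2 ratio in the strain that carried its chromosome in duplicate, minus its mean log2 ratio in the other 11 strains of that genotype. A gene was kept when its response was over 1.4 in both genotypes, and genes named RPL, RPS, HXT, COX or PAU, together with ALD4, GCY1 and DDR48, were left out. The rule kept 105 of the 4276 duplicated genes measured in both genotypes. The genes were chosen by these measured responses, so the responses are given as a description and without a test.

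A haploid yeast cell normally holds 1 copy of each chromosome, and a disome holds a second copy of a single chromosome. For most genes, RNA follows the copy number. A gene can depart from it when its own promoter responds to a condition of the strain. Among the well-known responders in yeast are genes of trehalose and glycogen storage, which are turned on by stress and slow growth, genes of respiration, which are repressed by glucose, and genes of phosphate uptake, which respond to the phosphate supply.

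The study hybridised RNA from 24 haploid MATa strains of the W303 background, 1 array each, grown in rich YEPD medium at 30 °C. The 12 disomes each carried in duplicate 1 chromosome out of I, II, V and VIII to XVI, and the 12 disomes-ubp6Δ carried the same chromosomes and also lacked UBP6, a deubiquitinase of the proteasome. The extra chromosomes were maintained with HIS3 and KanMX markers in both genotypes, the disomes and the wild-type strain also carried CaURA3 at a site on chromosome VI, and in the disomes-ubp6Δ CaURA3 replaced UBP6. Each strain was compared on a dual-colour array with a reference that the sample titles call wild-type. With 1 strain per disome and genotype, a property of a strain and a property of its duplicated chromosome cannot be told apart.

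The direction of the disome-ubp6Δ arrays was turned against their labels. The labels put the strain in Cy5 on all 24 arrays. In the disomes the mean Cy5 over Cy3 ratio of the duplicated genes was 0.67 to 0.99 (log2), but on the 12 disome-ubp6Δ arrays it was -0.98 to -0.59. The table of values deposited by the authors followed the turned ratios there, with a correlation across genes of 0.989 to 0.999. Without turning, arrays of the different genotypes correlated at -0.76 to 0.17 over genes, 13 of 144 pairs were under -0.3, and 1 gene passed the rule, which was not among the 105. UBP6 had a processed signal of 1235 to 3924 in the disomes but of 24.2 to 268 (median 87.9) with ubp6Δ, still well above background in all 12 strains. In the reference of the disome-ubp6Δ arrays it was lower still, at 12.9 to 65.1 (median 32.6), although that reference is labelled wild-type. Genotype, dye orientation and reference therefore cannot be told apart. The MATa genes STE2, BAR1, MFA1, MFA2, STE6 and AGA2 were well above background in all 24 strains. Of the alpha-specific genes, MF(ALPHA)1 was well above background in 4 strains of each genotype and STE3 in 6 and 11, MF(ALPHA)2 in 10 and 9, and SAG1 in all 24. An array of a disome gave values for 5387 to 6132 genes, and one of a disome-ubp6Δ for 5837 to 6081. The disomes lay on 3 slides, with XIII, XIV and XV together on 1 of them, and the disomes-ubp6Δ on 2.

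Over all 4276 duplicated genes the median response was 0.91 in both genotypes, near the value of 1 that a doubling gives. Over 1.4 were 410 genes in the disomes and 431 with ubp6Δ. Of these, 109 passed in both genotypes, which is 2.55% of the genes measured, 26.6% of the first list and 25.3% of the second. COX7, DDR48, GCY1 and ALD4 were then left out by symbol, and no gene of the RPL, RPS, HXT or PAU families had passed. The 105 members had a median response of 1.81 in the disomes and 1.63 with ubp6Δ, or 3.50 and 3.09 times the level in the other strains. Responses reached 3.40 in the disomes, for GAC1, and 3.54 in the disomes-ubp6Δ, for AFB1. In both genotypes 16 members were over 2.

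**Figure D1:**
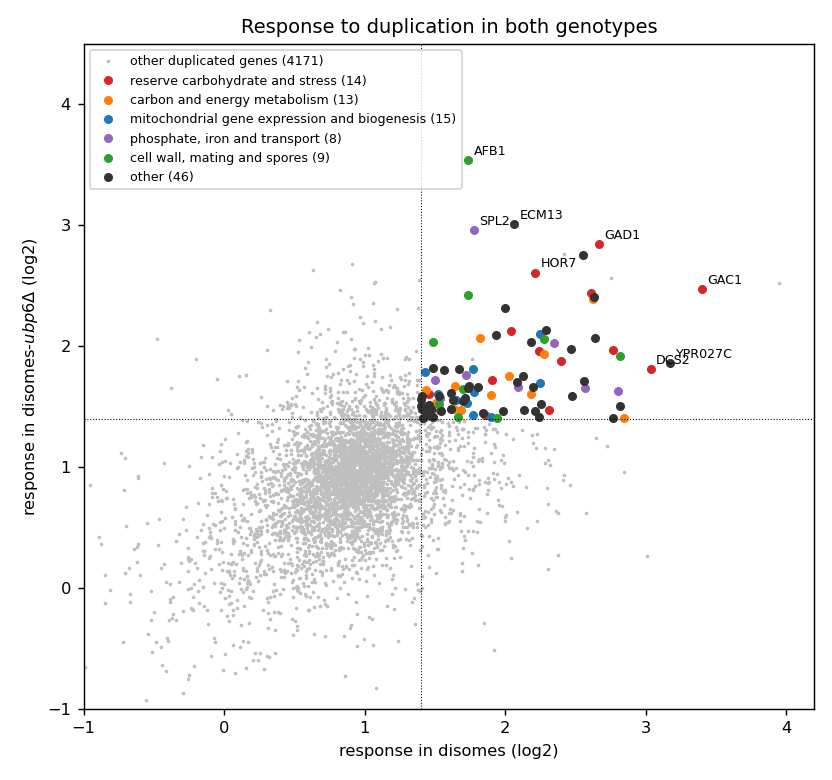
Response (log2) of each measured duplicated gene in the disomes (x axis) and the disomes-ubp6Δ (y axis). Each point is a gene, grey for other duplicated genes and coloured for the 105 members by role, and dotted lines mark the threshold of 1.4. Most genes gather near 0.91 on both axes, and 23 genes with a response below -1 in a genotype lie outside the plotted range.

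The threshold cut through a continuous range. Just inside were CRN1 at 1.4004 in the disomes and 1.566 with ubp6Δ, CRC1 at 2.843 and 1.402, YPR016W-A at 2.767 and 1.403, ERG8 at 1.404 and 1.501, and SMX3 at 1.413 and 1.404. Just outside were RHO1 at 1.937 and 1.397, SMF1 at 1.397 and 1.393, and TDA6 at 1.496 and 1.390. Against the reference itself, 96 of the 105 members had an own-disome log2 ratio over 1 in both genotypes, beside 19.2% of all measured duplicated genes. The own-disome ratio is a term of the rule, which therefore favours such values. The other 9 were PHO5, SPL2, FRE4, MRPL33, ACS2, YMR194C-A, ATP25, MET4 and CRN1. Their response exceeded 1.4 partly because their level in the other strains was below that of the reference.

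Members were unevenly spread over the disomes. Chromosome XV held 40 of them, or 7.25% of its 552 measured genes. Chromosome XIII followed with 22 of 471 genes (4.67%) and chromosome XII with 17 of 494 (3.44%). The shares were 1.74% on XIV, with 7 members, 1.68% on XVI, with 8, and 1.15% on VIII, with 3. Chromosomes II, X, XI and V held 2, 3, 2 and 1 members, each under 1% of their measured genes, and chromosomes I and IX held none. The median response over all genes of a disome did not follow this order. It was 0.90 and 0.92 on XV and 0.82 and 0.90 on XII, against 0.97 and 0.96 on XVI. Duplicated genes of disome XIV-ubp6Δ had a median response of only 0.56. The SD of the response over genes was 0.67 and 0.57 on XV and 0.59 and 0.63 on XII, but also 0.60 and 0.45 on XVI, and 0.38 and 0.55 on I, where no member lay.

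**Figure D2:**
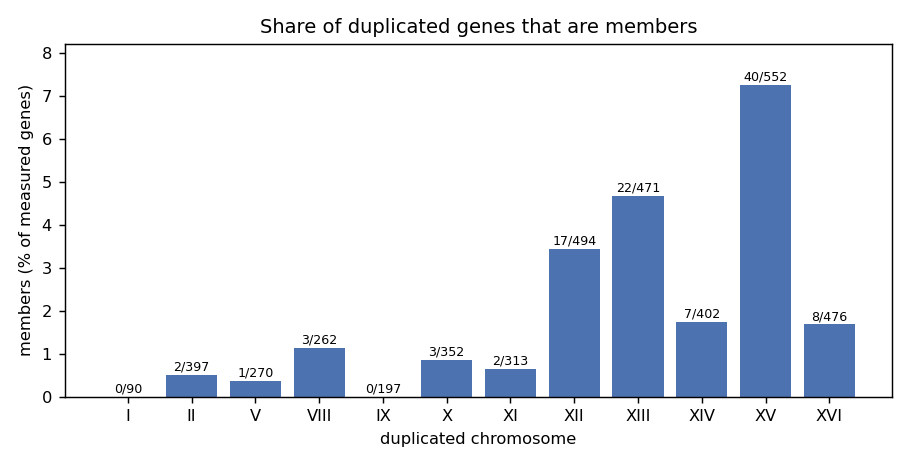
Share of the measured genes of each duplicated chromosome that are members, in percent, with the number of members and of measured genes above each bar. Chromosome XV has the tallest bar with 40 of 552 genes, and the bars of I and IX are empty.

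On chromosome XIII the member with the highest lower response of the 2 genotypes was GAD1, glutamate decarboxylase, which is induced by stress. Its log2 ratio was 2.57 in disome XIII, against -1.11 to 2.04 with a median of -0.31 in the other disomes, and 2.97 in disome XIII-ubp6Δ, against -1.32 to 1.50 with a median of -0.04. The highest of the other strains was the chromosome XV strain in both genotypes. Against the other disomes of its slide alone, the GAD1 response of 2.67 became 1.19. PGM2, the main phosphoglucomutase, stood at 1.99 in disome XIII and between -1.92 and 1.4 in the others (median -1.11), and at 2.05 in the ubp6Δ derivative, against -1.87 to 0.36 (median -0.18). Its disome response fell from 2.61 to 1.34 with the slide's own arrays as the baseline. HOR7, a small gene induced by hyperosmotic stress and the direct neighbour of GAD1, was at 2.67 against -1.32 to 1.15 (median 0.63) in the disomes. With ubp6Δ it was at 3.09 against -1.42 to 1.56 (median 0.70). Neither range reached the duplicated strain for these 3 genes.

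AIM33, also on XIII, had a log2 ratio of 1.63 where duplicated and -1.45 to 0.78 elsewhere (median -0.83, 9 arrays). In the disomes-ubp6Δ these were 1.62 and -2.01 to 0.28 (median -0.34). YMR173W-A, an open reading frame name that the annotation does not hold and that overlaps DDR48, was at 2.85 against -0.60 to 1.48 (median 0.41) and, with ubp6Δ, at 2.62 against -0.98 to 0.76 (median -0.20). DDR48 itself, one of the genes left out, had responses of 2.42 and 2.76, beside 2.56 and 2.75 for YMR173W-A, and the RNA of the pair cannot be told apart here. YOR121C on XV overlaps GCY1 (YOR120W), but the last letters of these names put the 2 on opposite strands. The processed signal of YOR121C was 109 in disome XV and 1938 in disome XV-ubp6Δ, beside 13188 and 8062 for GCY1. Its responses were 2.13 and 1.75, beside 2.75 and 2.57 for GCY1.

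Of the 12 members with the highest lower response, 4 lay on chromosome XV. GAC1, which directs the Glc7 phosphatase to glycogen synthase, had the highest own value of these 12 in the disomes, 4.28, against -1.36 to 2.95 (median 0.71) on the 8 other arrays that measured it. In disome XV-ubp6Δ it was at 2.64 and elsewhere at -0.72 to 0.97 (median -0.03). MDH2, the cytosolic malate dehydrogenase of gluconeogenesis, was at 3.11 against -0.24 to 1.02 (median 0.60) and at 2.86 against -0.12 to 1.48 (median 0.45). RDL1, a rhodanese-like sulfurtransferase, was at 2.32 against -0.25 to 0.75 (median -0.00) and at 2.39 against -0.68 to 1.28 (median 0.43). The last was BAG7, a GTPase-activating protein for Rho1, at 2.89 against -0.54 to 2.04 (median 0.13) and at 2.85 against -0.49 to 1.81 (median 0.77). In all 4 genes the duplicated strain lay above every other strain of its genotype.

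The remaining 3 of the 12 lay on chromosomes XII and II. RNP1, which encodes an RNA-binding protein, had a log2 ratio of 3.23 in disome XII and 0.29 to 1.23 in the others (median 0.52, 9 arrays), and of 2.95 against -0.64 to 1.53 (median 0.63) with ubp6Δ. CDA1, a chitin deacetylase of the spore wall, was at 2.89 against -1.14 to 1.91 (median 0.69, 7 arrays) and at 2.05 against -0.74 to 0.67 (median 0.00). In disome XII the reference spots of both genes were not well above background, so only an approximate bound can be given. It took the lowest reference signal of a gene well above background on that array. By it RNP1 was at least about 5.07-fold and CDA1 at least about 1.96-fold the reference. At its bound of 0.97 (log2), CDA1 in disome XII would lie below the 1.91 of the highest other disome. With another background correction (normexp with loess) their disome responses of 2.63 and 2.27 became 0.92 and 0.60, and without a filter on dim spots that of CDA1 became 0.37. ECM13 on chromosome II stood at 2.51 against -0.08 to 2.09 (median 0.15) and at 3.53 against -0.18 to 1.32 (median 0.44).

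**Figure D3:**
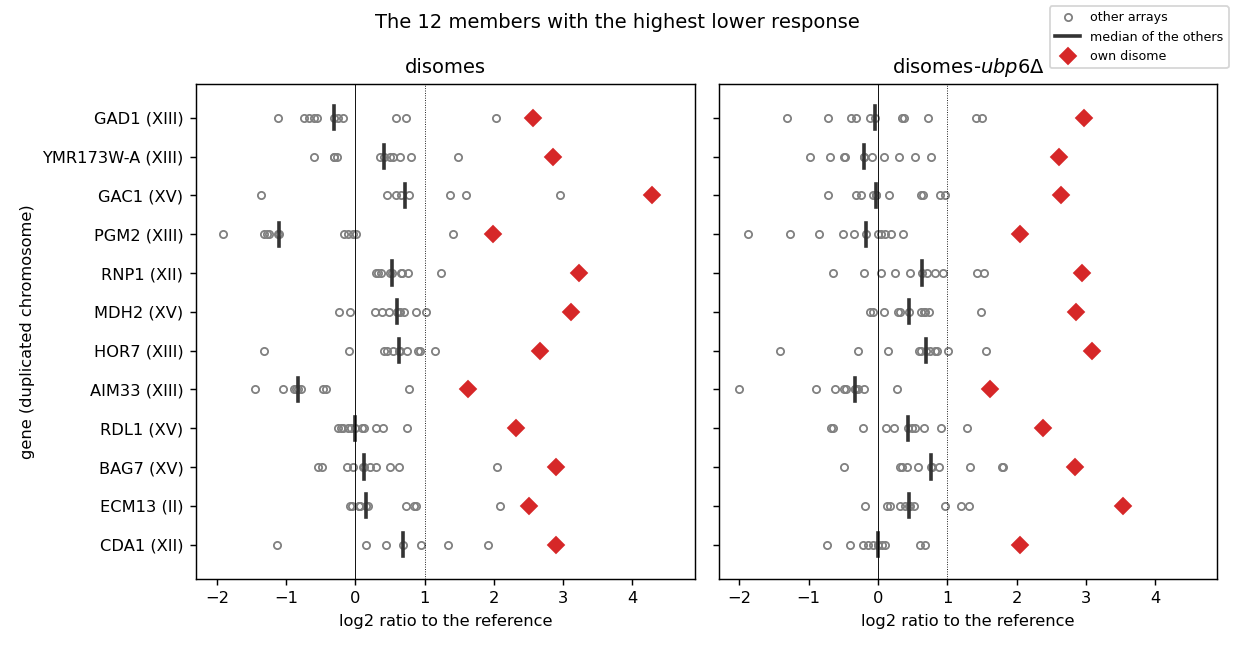
Log2 ratio to the reference of the 12 members with the highest lower response, in the disomes (left) and the disomes-ubp6Δ (right). Red diamonds mark the strain in which the gene was duplicated, open circles the other strains and vertical bars their median, and the dotted line marks a doubling. Every diamond lies right of every circle of its gene, but that of CDA1 in the disomes is a ratio to a reference not well above background and would not do so at its bound of 0.97.

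There were 14 members of reserve carbohydrate storage, stress and protein folding, a group drawn up after the values were seen, as were the other role groups. Of these 14, 6 lay on XIII, 5 on XV, 2 on XVI and 1 on XIV. Their median response was 2.28 in the disomes and 1.92 with ubp6Δ, and 5 of them were over 2 in both. Beside GAD1, GAC1, PGM2 and HOR7 they included TSL1, a subunit of trehalose synthase, with responses of 2.77 and 1.97, and DCS2, a regulator of mRNA decapping enzymes that is induced by nutrient stress, with 3.03 and 1.81. MSC1 had responses of 2.24 and 1.96, and OYE3, an NADPH oxidoreductase, of 2.04 and 2.13. DDR2, a stress gene of unknown function, was already high where it was not duplicated, with a median of 1.75 in the other disomes and an own value of 4.03. In the disomes-ubp6Δ its own value of 2.57 was below the 3.18 of disome XIII-ubp6Δ. The eisosome and membrane compartment genes SUR7 and NCE102 had 1.46 and 1.61, and 1.54 and 1.47. YNL194C, a relative of SUR7, stood at 1.94 in disome XIV, below the 2.43 of disome XV.

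Of a list of stress-induced genes, 7 of the 43 duplicated and measured genes of the list were members (16.3%, beside 2.46% of all measured duplicated genes). They were DDR2, TSL1, PGM2, GAD1, MSC1, HOR7 and GAC1. The list as a whole did not stand out by its median response, which was 0.89 and 0.86. List genes on the other chromosomes show how the same strains stood, although the values of those that lie on another duplicated chromosome also entered the rule as baseline. In disome XV 56 of 60 such genes were above their mean in the other disomes, with a mean shift of 1.21, first of the 12 disomes. With ubp6Δ the shift was 0.59, second of 12, with 55 of 60 genes above. In disome XIII it was 0.37 (rank 3 of 12), and in disome XIII-ubp6Δ 0.67, first of 12, with 33 and 47 of 52 genes above. Strain XIV had 0.38 and 0.50. In strain XII, where 17 members lie, the list was lower, at -0.32 and -0.60. These shifts are between single strains, share their comparison arrays and were not tested. Of the 30 duplicated and measured genes of a chaperone list 2 were members (6.67%), both on XV. HSP10, the mitochondrial co-chaperonin, was at 2.13 against -0.15 to 0.56 (median 0.23) and at 1.63 against -0.75 to 0.49 (median 0.14). STI1, a co-chaperone of Hsp90, was at 1.34 against -1.51 to 0.21 (median -0.48) and at 1.45 against -0.91 to 0.52 (median 0.02).

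Carbon and energy metabolism accounted for 13 members, 7 on XV, 3 on XIII, 2 on XII and 1 on XI. Their median response was 1.82 and 1.6. CYT1, cytochrome c1 of respiratory complex III, stood at 2.47 in disome XV against -1.63 to 0.91 (median 0.33), and at 1.98 against -1.51 to 1.01 (median 0.06) with ubp6Δ. CYB2, the lactate dehydrogenase of the mitochondrial intermembrane space, was at 2.46 in disome XIII, hardly above the 2.40 of disome XV where it was not duplicated, and the median of the others was 0.63. In the disomes-ubp6Δ it was at 2.29 against -1.04 to 1.42 (median 0.21). Its disome response of 1.82 became 0.94 against the slide's own arrays. The tricarboxylic acid cycle genes IDH2 and LSC1 had responses of 1.65 and 1.67, and of 1.72 and 1.56. ATP19, a subunit of ATP synthase, had 2.18 and 1.6, and RCF1, a factor of respiratory supercomplexes, 1.90 and 1.59.

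The mitochondrial carriers OAC1, DIC1 and CRC1, for oxaloacetate, dicarboxylates and carnitine, had responses of 2.03 and 1.76, 1.44 and 1.64, and 2.84 and 1.4. COQ3, a methyltransferase of ubiquinone synthesis, had 1.63 and 1.48, ALO1, the last enzyme of erythroascorbic acid synthesis, 1.68 and 1.47, and ACS2, the acetyl-CoA synthetase used on glucose, 1.51 and 1.53. Of a list of respiration genes 5 of 42 were members (11.9%, beside 2.46% of all measured duplicated genes), namely IDH2, LSC1, ATP19, CYT1 and CYB2. Of a list of glucose-repressed genes 3 of 47 were members (6.38%), namely MDH2, CRC1 and CYB2. Respiration genes on other chromosomes were higher in strain XV than in the other strains, by a mean of 0.90 in the disomes (45 of 48 genes) and 0.70 in the disomes-ubp6Δ (44 of 48 genes). Both were first of 12. Strain XII was at the other end, at -0.70 and -1.08. Glucose-repressed genes outside XV were higher by 1.02 and 0.46 in strain XV, again first of 12 in both genotypes. In strain XIII, which carries CYB2, such genes on other chromosomes shifted by -0.10 and 0.10. Pheromone and mating genes outside XV were likewise first of 12 in strain XV, by 0.86 and 0.61. Of the 27 duplicated and measured genes of that list, however, 0 were members.

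All 15 members of mitochondrial gene expression and biogenesis lay on chromosome XIII (7) or XV (8). They had modest responses, with a median of 1.65 and 1.55. Among them were 6 mitochondrial ribosomal protein genes, MRPL3 (1.78 and 1.62), MRPS17 (1.65 and 1.55), MRPL33 (1.54 and 1.57), MRPL39 (1.52 and 1.6), YML6 (1.47 and 1.47) and MRPL23 (1.41 and 1.52). These were 12.5% of 48 measured duplicated genes with such symbols, beside 2.46% of all measured duplicated genes. The list was added after the values were seen, and its median response was 1.1 and 1.04. TUF1, the mitochondrial translation elongation factor, had 2.25 and 1.69, and MSS1, an enzyme of mitochondrial tRNA modification, 1.73 and 1.53. ATP25, needed for assembly of ATP synthase, had 1.46 and 1.48, and the outer membrane protein genes MIM1 and MCP1 had 1.43 and 1.79, and 1.77 and 1.43. RDL1, RDL2, AIM39 and AIM41 were also placed in this group, although RDL1 is a rhodanese-like sulfurtransferase. The grouping was made after the values were seen. Mitochondrial ribosomal protein genes on other chromosomes were higher in strain XIII, by a mean of 0.48 and 0.54 (55 and 57 of 58 genes), first of 12 in both genotypes. Strain XV was second, at 0.37 and 0.29 (62 of 65 genes in both). Again strain XII was lower, at -0.65 and -0.66.

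**Figure D4:**
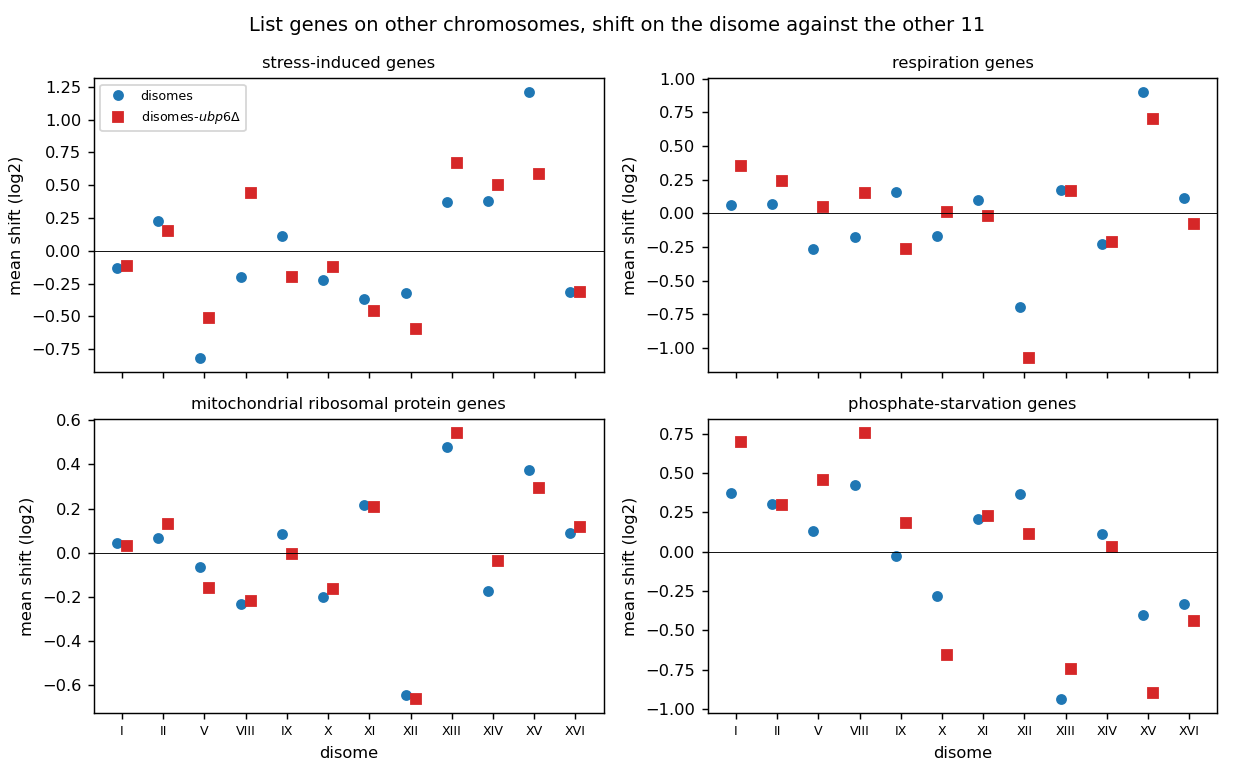
Mean shift (log2) of 4 gene lists in each disome against the mean of the other 11 strains of its genotype, over list genes that lie on other chromosomes. Circles are disomes and squares disomes-ubp6Δ, 1 strain each. Strain XV is highest for respiration genes in both genotypes, at 0.90 and 0.70, and strain XIII for mitochondrial ribosomal protein genes, at 0.48 and 0.54.

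Phosphate and iron supply and transport accounted for 8 members. PHO5, the repressible acid phosphatase, varied widely between strains. It was at 1.04 in disome II against -4.33 to 0.49 (median -0.82) and at 0.43 in disome II-ubp6Δ against -4.03 to 0.81 (median -1.36). With ubp6Δ strains I, at 0.81, and VIII, at 0.62, exceeded the duplicated strain. Against the other arrays of its slide its ubp6Δ response of 2.03 became 0.35. SPL2, which acts on low-affinity phosphate transport, was at 1.02 in disome VIII against -4.57 to 0.30 (median -0.60) and at 0.89 against -5.37 to 0.09 (median -1.30). VIP1, an inositol polyphosphate kinase of the same pathway, had responses of 1.54 and 1.57. These 3 made up 15.0% of the 20 duplicated genes of a phosphate list, beside 2.46% of all measured duplicated genes. Phosphate genes on other chromosomes stood highest in strain VIII, by 0.43 and 0.76, in 24 of 28 and 20 of 26 genes, and had rank 4 of 12 in strain II, at 0.30 in both genotypes. In strain XV they were lower, by means of -0.40 and -0.90.

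Of the 35 duplicated and measured genes of a metal list 2 were members (5.71%, beside 2.46% of all measured duplicated genes), both for ferric reductases. FRE4 was at 0.95 in disome XIV against -2.22 to -0.19 (median -0.59) and at 0.98 against -2.36 to 0.86 (median -0.90). FRE7 was at 2.51 in disome XV against -1.70 to 1.14 (median 0.02) and at 1.86 against -1.57 to 1.47 (median 0.27). Metal genes on other chromosomes stood first of 12 in strain XIV, at 0.40 and 0.38, but at -0.28 and -0.35 in strain XV. NCE103, carbonic anhydrase, was at 4.29 in disome XIV and also high in the others, at 0.37 to 3.35 (median 1.61). With ubp6Δ it was at 2.09 against -0.30 to 1.53 (median 0.32), and with the slide's own arrays as baseline its disome response of 2.81 became 1.79. NHA1, a sodium and proton antiporter, had responses of 2.09 and 1.66, and MCH5, the riboflavin transporter, of 1.50 and 1.72.

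In the cell wall, mating or spores act 9 members. AFB1, known as an alpha-specific gene whose product acts on the pheromone a-factor, had a response of 1.74 in disome XII and 3.54 in disome XII-ubp6Δ, where it stood at 3.24 and between -1.03 and 0.48 elsewhere. In disome XII, labelled MATa like the others, its processed signal was 7992, beside 2506 in the reference. OSW2 and LDS2, of the spore wall, had 1.73 and 2.43, and 1.66 and 1.42, and RRT8, of the same pathway, 1.53 and 1.52. MEK1, a meiotic kinase, was measured on 5 other disome arrays and 1 other disome-ubp6Δ array, so its responses of 2.82 and 1.92 rest on few values. Of the 50 duplicated and measured genes of a cell wall list 3 were members (6%, beside 2.46% of all measured duplicated genes). GAS5, a glucanosyltransferase, was at 1.66 in disome XV against -0.23 to 0.31 (median -0.02) and at 1.97 against -0.21 to 0.75 (median 0.33). NCA3 was at 2.13 in disome X against -0.61 to 1.72 (median 0.48) and at 2.56 against -1.13 to 2.50 (median 0.39), and its disome response of 1.49 became 0.38 with normexp and loess. FKS1, a subunit of glucan synthase, had 1.94 and 1.41. MEK1 was the only member among 29 duplicated and measured genes of a sporulation list (3.45%). Sporulation genes on other chromosomes were shifted by 0.12 and 0.03 in strain XV, which carries MEK1, LDS2 and RRT8, and by 0.62 and 0.22 in strain XII.

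The other 46 members shared no such role, with disome responses of 1.4 to 3.17 and responses of 1.4 to 3.01 with ubp6Δ. The highest in the disomes was YPR027C, at 1.74 in disome XVI against -2.72 to -0.18 (median -1.4), and at 2.02 against -0.65 to 0.80 (median 0.19) with ubp6Δ. With normexp and loess its responses of 3.17 and 1.86 became 1.69 and 0.62. ERR1, an enolase-related gene near the end of chromosome XV whose close copies may share its signal, was at 2.66 against -2.36 to 1.23 (median -0.23) and at 1.88 against -0.78 to 1.16 (median 0.47). ELF1, a transcription elongation factor, was at 2.00 in disome XI against -0.15 to 0.87 (median 0.68) and at 1.00 against -0.73 to 0.02 (median -0.44). Beside AIM33, at 2.29 and 2.13, those between 2 and 2.4 in both genotypes were YEH1, a steryl ester hydrolase, at 2.00 and 2.32, and YOR289W, at 2.19 and 2.03. YMR196W was at 2.47 and 1.98.

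Signalling and trafficking genes among these 46 were PTP2, a phosphatase of the Hog1 kinase (1.73 and 1.65), SKM1, a kinase (2.08 and 1.71), GSP2, a Ran GTPase (2.48 and 1.59), and YPT53, a Rab GTPase (2.20 and 1.66). Protein synthesis and turnover were represented by EGD1, of the nascent-chain-binding complex (2.25 and 1.52), PRC1, vacuolar carboxypeptidase Y (2.21 and 1.46), APC2, of the anaphase-promoting complex (1.72 and 1.57), ATG34 (1.70 and 1.55), RRI2 (1.46 and 1.52) and FPR4, a proline isomerase (1.57 and 1.80). SPC97, of the spindle pole body, had 1.74 and 1.67, CRN1, coronin, 1.4 and 1.57, FCF2, of rRNA processing, 1.49 and 1.82, and SMX3, an Sm protein of the spliceosome, 1.41 and 1.4. Metabolic genes were BAT2, the cytosolic branched-chain aminotransferase (1.44 and 1.44), MET4, the activator of sulfur metabolism genes (1.44 and 1.44), ERG8, of the mevalonate pathway (1.4 and 1.50), and IAH1, an ester hydrolase (1.63 and 1.55). The remaining names, SSP120, CSS3, HER1, GUP2, PIN2, YJR149W, YOR343C, YLR255C, YMR194C-A, YPR063C, YHR022C, YER188W, YNL208W, COS1, YLR278C and YPR016W-A, had disome responses of 1.41 to 2.77 and, with ubp6Δ, of 1.4 to 2.10. COS1 belongs to a subtelomeric family whose members may share signal.

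As a set, members had a larger SD over the strains where they were not duplicated than all measured duplicated genes. These arrays are the baseline that the rule subtracts, so the values over them are given as a description. The median SD over the other arrays was 0.40 in the disomes and 0.45 with ubp6Δ, beside 0.29 and 0.31 over all measured duplicated genes. It was largest for the phosphate, iron and transport genes, at 0.70 and 0.79, and for the stress and reserve carbohydrate genes, at 0.72 and 0.58. It was lowest for mitochondrial gene expression, at 0.25 and 0.32, which in the disomes is below the 0.29 of all genes. A level over 1 in at least 1 other strain of both genotypes was found for 27 of 105 members, beside 9.05% of all measured duplicated genes. Of the 22 members on XIII, 15 had their highest other value in disome XV (68.2%, beside 17.6% of all genes on XIII), and 7 did so in disome XV-ubp6Δ (31.8%, beside 12.7%). For the 40 members on XV, the highest other value fell in strain XIV for 12 and 3 (30.0% and 7.50%, beside 12.1% and 9.24% of all genes on XV). It fell in strain XIII for 6 and 13 (15.0% and 32.5%, beside 13.8% and 11.2%), so that no strain led in both genotypes. Disomes XIII, XIV and XV, which hold 69 of the 105 members, shared a slide, whereas their ubp6Δ derivatives shared a slide with 5 other strains, and the part of the slide in this was not tested. With only arrays of the same slide as the baseline 95 genes passed, of which 68 were members. Disome XVI was the only disome on its slide, so the 8 members on XVI had no such baseline and could not pass.

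In 101 of 105 members the duplicated strain was the highest of its genotype in both genotypes, which the rule favours, and 64.7% of all measured duplicated genes showed the same. The 4 exceptions were PHO5, YNL194C, DDR2 and YHR022C. The last, on VIII, was at 1.88 with ubp6Δ against 2.90 in strain XII.

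The responses did not extend to the neighbouring genes. The 2 nearest measured genes on each side of a member had a median of their mean response of 0.89 in the disomes and 0.90 with ubp6Δ, beside 0.90 and 0.91 around all measured duplicated genes that the annotation holds. AFB1 sat among genes with a mean of 0.31 and 0.58, and PGM2 among genes with 0.49 and 0.43. One member, HOR7, had a mean neighbour response over 1.4 in both genotypes, at 1.55 and 1.44, with GAD1 among those neighbours. In 9 pairs members were direct neighbours: GAD1 and HOR7, AIM33 and ALO1, and MSS1 and MRPL3 on XIII, BAT2 and YJR149W on X, and AIM39 and DDR2, RRT8 and LDS2, BAG7 and IDH2, HER1 and MCP1, and RDL1 and RDL2 on XV. These pairs took in 18 members. Members were 2.46% of all measured duplicated genes, and how many pairs such a share would give was not tested. Within 10 measured genes of a chromosome end lay 7 of 101 members (6.93%), beside 5.94% of all such genes. Of the marker insertions that maintain the disomes, 1 had a member within 5 genes, namely PIN2 beside LEU9. PIN2 and YHR022C each overlap another annotated gene, so their signal may be shared.

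**Figure D5:**
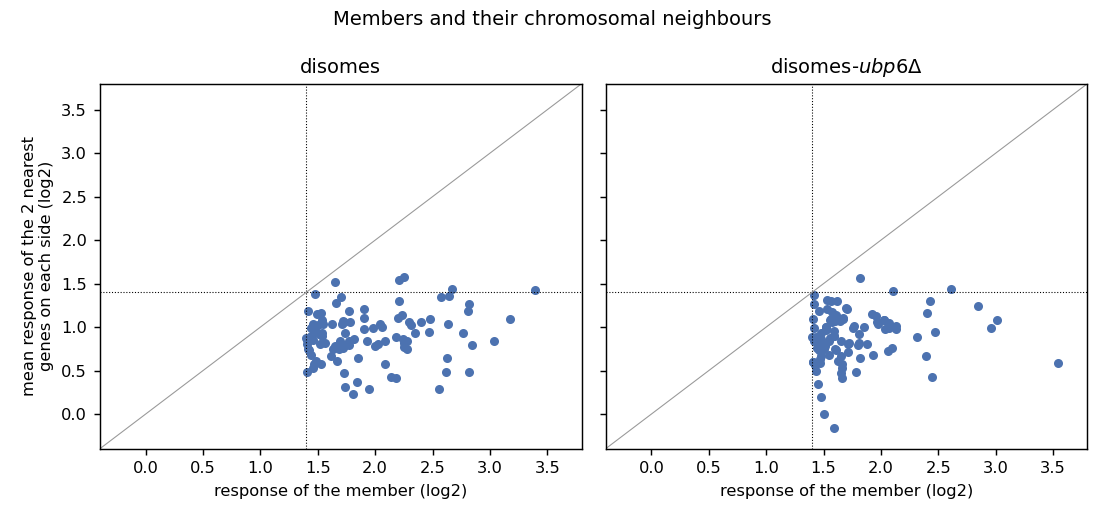
Mean response (log2) of the 2 nearest measured genes on each side (y axis) against the response of the member (x axis), for 101 members in the disomes (left) and the disomes-ubp6Δ (right). Points fall below the diagonal, and dotted lines mark 1.4. Neighbour means run from 0.23 to 1.58 on the left and from -0.16 to 1.56 on the right.

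No member had a saturated spot on its own array. The reference signal of a member on its own array had a median percentile of 38.5 among all genes in the disomes and 51.1 with ubp6Δ, beside 51.6 and 52.3 for all measured duplicated genes. At least 1 reference spot of an own array was not well above background for 15 members (14.3%, beside 8.72% of all measured duplicated genes). Among them were BAG7 and YPR027C with ubp6Δ. Both reference spots of an own array were so for 7 members, beside 173 of all 4276 genes. The 7 were RNP1, CDA1, MEK1, YNL194C, SPC97, YPT53 and YHR022C. By the approximate bound used above, their level there was at least about 1.13-fold (MEK1 with ubp6Δ) to at least about 5.07-fold (RNP1) that of the reference. At these bounds 5 of the 7, CDA1, MEK1, YNL194C, SPC97 and YPT53, would not reach a response of 1.4 in a genotype, with values of 0.35, 0.23, 0.55, 0.79 and -0.26. The responses given for them there are ratios to a reference not well above background. The own array would not be the highest at the bound in 5 of the 7, namely CDA1, MEK1, YNL194C, YPT53 and YHR022C. Fewer than 6 other arrays of a genotype measured MEK1, SPC97, YPT53, ATG34 and YMR194C-A.

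Members could also be compared between the genotypes in the strains where they were not duplicated. These values are the baseline that the rule subtracts, so the differences are given as a description. Within pairs of strains with the same extra chromosome, the median difference, disome-ubp6Δ minus disome, was -0.06 over 100 members and -0.02 over all genes. YPR027C was higher with ubp6Δ by 1.51 ± 0.22 (SE, 9 of 9 pairs), and YOR121C by 0.88 ± 0.15 (11 of 11 pairs). YPR027C was dim, with its reference signal at percentiles 4.79 and 2.95 on its own arrays. The difference of NCE103 was -1.02 ± 0.14, that of ELF1 -0.93 ± 0.13 and that of SPL2 -1.32 ± 0.29, each lower in all 11 pairs. CDA1 differed by -0.66 ± 0.22 and was higher in 1 of 7 pairs. The genotype difference cannot be told apart from the dye orientation and the reference of these arrays.

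In a limma fit over all 5771 genes, at an adjusted p of 0.05, 11 members were higher with ubp6Δ, where 16.4% of all genes were, and 22 were lower, where 18.2% were. With the slide as a random block, in a fit without the pairing, 2 were higher, VIP1 and ACS2, and 1 lower, ELF1. YPR027C, YOR121C, NCE103, SPL2 and CDA1 were not called there. Only 1 of the slides held both genotypes, with 1 disome and 4 disomes-ubp6Δ. In the paired fit without the pair of disome V, VIII or XI the number lower was 14, 12 or 14. Against the reference, where members were not duplicated, 25 of 100 members were higher in the disomes, where 15% of all genes were, and 21 were lower, where 24.5% were. In the disomes-ubp6Δ 18 of 103 were higher, where 13.9% of genes were, and 21 lower, where 21.2% were. With the slide as a random block these numbers were 4 and 6 in the disomes and 3 and 7 with ubp6Δ. Counts under these alternative settings stand without the share of all genes called there, so a change in them cannot be read as particular to members. The values fitted here are part of the response, so nothing is read from any of these counts.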

How the data were processed

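RNA of 12 disomes and 12 disomes-ubp6Δ was hybridised against a reference on dual-colour Agilent arrays, 1 array per strain. The intensity values deposited by the authors are processed Cy5 and Cy3 signals of Agilent Feature Extraction 10.7.1.1, background-subtracted and dye-normalized, together with median spot and background intensity. The authors also deposited a table of log2 ratios, whose rows were matched to probes and whose scale, centring and direction were taken from its fit to the spot ratios (column medians of -0.04 to 0.01). The deposited log10 ratios of each spot, made by the authors' software from the processed signals, were not used here. The file headers name an annotation based on the sacCer2 build. Gene names came from a RefSeq table of another build, so no coordinates are given. Depth does not apply to arrays, and their number limits the precision.

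Log2 ratios of processed strain over reference signal were averaged over spots well above background in at least 1 dye, then over genes, with the sign turned on the disome-ubp6Δ arrays. Control spots were left out and outlier spots kept. Responses used no pseudocount. Tests used limma 3.58.1 in R 4.3.3 (lmFit, eBayes, Benjamini-Hochberg over all genes, two-sided, at least 6 arrays or pairs), with the arrays on which a gene was duplicated left out. The arrays fitted are the baseline of the response, so counts of members called are given without a reading. On simulated differences for the paired test (5771 genes) 51% of changes of 0.5 and 87% of changes of 1 were recovered. The simulated noise was independent between arrays, whereas arrays of a slide correlated at 0.34 in the unpaired difference fit. These rates therefore need not hold for the data.

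Strains were paired by their duplicated chromosome. Deviations of the strains of a pair correlated at -0.06 to 0.64 over genes (median 0.32), over 0.1 in 11 of 12 pairs, and 8 of 12 disomes correlated best with their own derivative. The arrays measure strains, and nothing says that a strain was grown more than once.

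Every member is named. Ranges over all arrays are given for the 12 members with the highest lower response, for the 6 members with the largest called genotype difference and for up to 2 members of each of the gene lists that holds at least 2. Neighbours were taken in the order of the annotation. The members and the 16 lists were chosen with earlier results of these data known. Alternatives were the outlier spots, the background filter, normexp (offset 50) with loess, the deposited table, centring, the baseline, the threshold, the pairing and the slide.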

Additional observations from a re-analysis of the deposited data

How the results depend on the processing

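The number of members, 105, was 95 to 112 without outlier spots, without a background filter, with both dyes above background, with the deposited table, after centring, with the median as baseline and with only same-slide arrays, and 100 to 110 when both arrays of 1 disome were left out of the baseline. It was 66 with normexp and loess, of which 63 were members, 302 at a threshold of 1.2, 50 at 1.6, and 1 without the sign turned. A rule on the own value against the reference, over 1.4 in both genotypes, would take 182 genes, 70 of them members. In all, 44 members passed under each of these 8 settings other than the thresholds and the sign, and 27 under all but 1. The 8 members on XVI could not pass with same-slide arrays, since disome XVI was alone on its slide. The median response stayed within 1.67 to 1.83 and 1.52 to 1.65, except that without the sign turned that of the disomes-ubp6Δ was -1.63.

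For the genotype difference, 11 members higher and 22 lower became 9 and 6 with no replicate block, and 24 and 22 without the sign turned. With slide as a random block, also without the pairing, they became 2 and 1. Slide and genotype largely coincide there, since a single slide held both genotypes. Leaving out 1 pair gave 8 to 12 higher and 12 to 21 lower. Slide as a random block left 4 members higher and 6 lower against the reference in the disomes, and 3 and 7 in the disomes-ubp6Δ, of 25, 21, 18 and 21. The cause of these changes was not tested, and the share of all genes called under each setting is not given here. The difference of BAG7, 0.53, was -0.036 with normexp and loess. Counted over named genes and the settings other than the sign, 19 responses moved by more than the spread over strains. In 23 cases, counted in the same way, a genotype difference called in the main fit was no longer called. At least 1 reference spot of an own array was dim for 15 members. Both were dim for 7, of which 5 would not reach the threshold at their bounds.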
